A study of Homo sapiens with 18 samples.

Results

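The expression of 45 genes of tight junctions, desmosomes and epithelial polarity was compared in 3 human lung cancer cell lines before and after an epithelial-mesenchymal transition (EMT). They were taken by name from a table of 19849 genes: every gene symbol that is CLDN followed by digits, which gave 20 claudins, and 25 named genes. The named genes comprise 9 other tight junction genes, 11 desmosome and plakin genes and 5 genes of polarity and epithelial membrane trafficking. Their expression was read from 18 arrays of the Affymetrix U133 Plus 2.0 type, 3 for each of 6 groups: parental and mesenchymal A549, HCC827 and NCI-H358 cells. All are non-small cell lung cancer lines of epithelial origin. The mesenchymal groups are derivatives of the same lines, kept for 3 weeks per the labels in 2 ng/ml TGFb, the cytokine used to induce EMT. They were returned to medium free of TGFb on the day before lysis, so the arrays read cells a day after its removal. The methods give treatment times that differ between the lines, and each line is 1 model of its own genotype.

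Tight junctions are the most apical contacts between epithelial cells. Claudins are tetraspan proteins whose strands set which ions and solutes pass between cells, occludin and the related MARVEL proteins sit in the same strands, and cytoplasmic scaffolds such as ZO-1, the product of TJP1, tie the strands to actin. Desmosomes are spot-like contacts in which desmosomal cadherins are linked through plakoglobin, plakophilins and plakins to keratin filaments. The Crumbs, Par and Scribble complexes place these contacts along the apical-basal axis, and RAB25 and AP1M2 belong to epithelial routes of vesicle recycling and sorting. Loss of such contacts is a defining feature of EMT.

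Values were log2 expression after robust multi-array averaging (RMA), which corrects background, equalizes the arrays and summarizes each probe set on a log2 scale, so a difference of 1 is a 2-fold change. Changes are given as mesenchymal minus parental with the standard error (SE) of the limma fit, and n was 3 arrays per group throughout, numbered 1 to 3 in accession order with no pairing. A gene was called when the adjusted p was below 0.05 and the fold above 2. A stricter rule, the cutoffs the study used, required an adjusted p below 1e-05 and a fold above 5. The within-group SD of the 45 genes had a median of 0.120 and reached 0.655. A legend of the study describes the replicates as separate biological samples made at the same time, so the p-values measure the spread between such samples only.

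Of 5 epithelial marker genes, 3 were lower in mesenchymal A549 cells and all 5 in mesenchymal HCC827 and NCI-H358 cells. CDH1, the E-cadherin gene, changed by -5.81, -2.95 and -3.94 in A549, HCC827 and NCI-H358, respectively. Of 4 mesenchymal marker genes, 2, 4 and 4 were higher in the same order of lines. Group means of 4 leukocyte markers reached at most 5.76, against a median of 6.40 over all values of the table, and CD14 was lower in mesenchymal A549 cells. The table holds no detection calls, so whether levels in that range stand above background is not known, and differences from them may be understated. Of 4 endothelial markers, TIE1 was higher in HCC827 and NCI-H358 and KDR in NCI-H358, up to a mean of 6.59, while PECAM1 and CDH5 passed the test for a 2-fold change in no line. Whether these markers have a part in the results was not tested.

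Most of the junction genes that changed were lower in mesenchymal cells, and more of them were called in HCC827 and NCI-H358 than in A549. RNA came from whole cultures, so fewer cells expressing a gene and less of its RNA per cell cannot be told apart. In A549, 9 of 45 were lower and 2 higher, where 3.87% of all genes were lower and 4.15% higher. In HCC827, 20 were lower and 1 higher, against 6.58% and 4.89% of all genes. In NCI-H358, 23 were lower and 1 higher, against 5.42% and 3.96%. By the stricter rule 0, 13 and 12 were lower in A549, HCC827 and NCI-H358, where 0.736%, 1.63% and 1.36% of all genes were. The median change of the 45 genes was -0.04, -0.78 and -1.02, whereas that of all 19849 genes was -0.02, 0.01 and 0.02. The A549 median of the 45 genes turned to 0.03 when each array was centred on its own median, and that of all genes to 0.05.

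The families are described by their counts and medians. Over all genes 3.87%, 6.58% and 5.42% were lower in A549, HCC827 and NCI-H358, with medians of -0.02, 0.01 and 0.02. Higher were 1 claudin in A549 and 1 desmosome and plakin gene in each line, against 4.15%, 4.89% and 3.96% of all genes. In A549 the claudin counts lay near the shares of all genes in either direction. Among the 20 claudins, 1, 3 and 5 were lower in A549, HCC827 and NCI-H358, with median changes of 0.02, -0.13 and -0.12. Among the 9 other tight junction genes, 2, 8 and 8 were lower, with medians of -0.27, -2.75 and -1.50. Among the 11 desmosome and plakin genes, 3, 5 and 6 were lower, with medians of -0.02, -0.78 and -1.03. The first of these turned to 0.05 with centring and to 0.10 after quantile normalization. For all genes the A549 median was 0.05 with centring and -0.02 after quantile normalization. Among the 5 polarity and trafficking genes, 3, 4 and 4 were lower, with medians of -1.07, -2.45 and -2.56. Low levels were read for 10 of the 20 claudins, against 39.2% of all genes: these 10 (CLDN5, CLDN6, CLDN8, CLDN9, CLDN14, CLDN16, CLDN17, CLDN18, CLDN19 and CLDN20) had group means below the median of all values in every group, as did PKP1 alone of the other 25 genes.

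**Figure D1:**
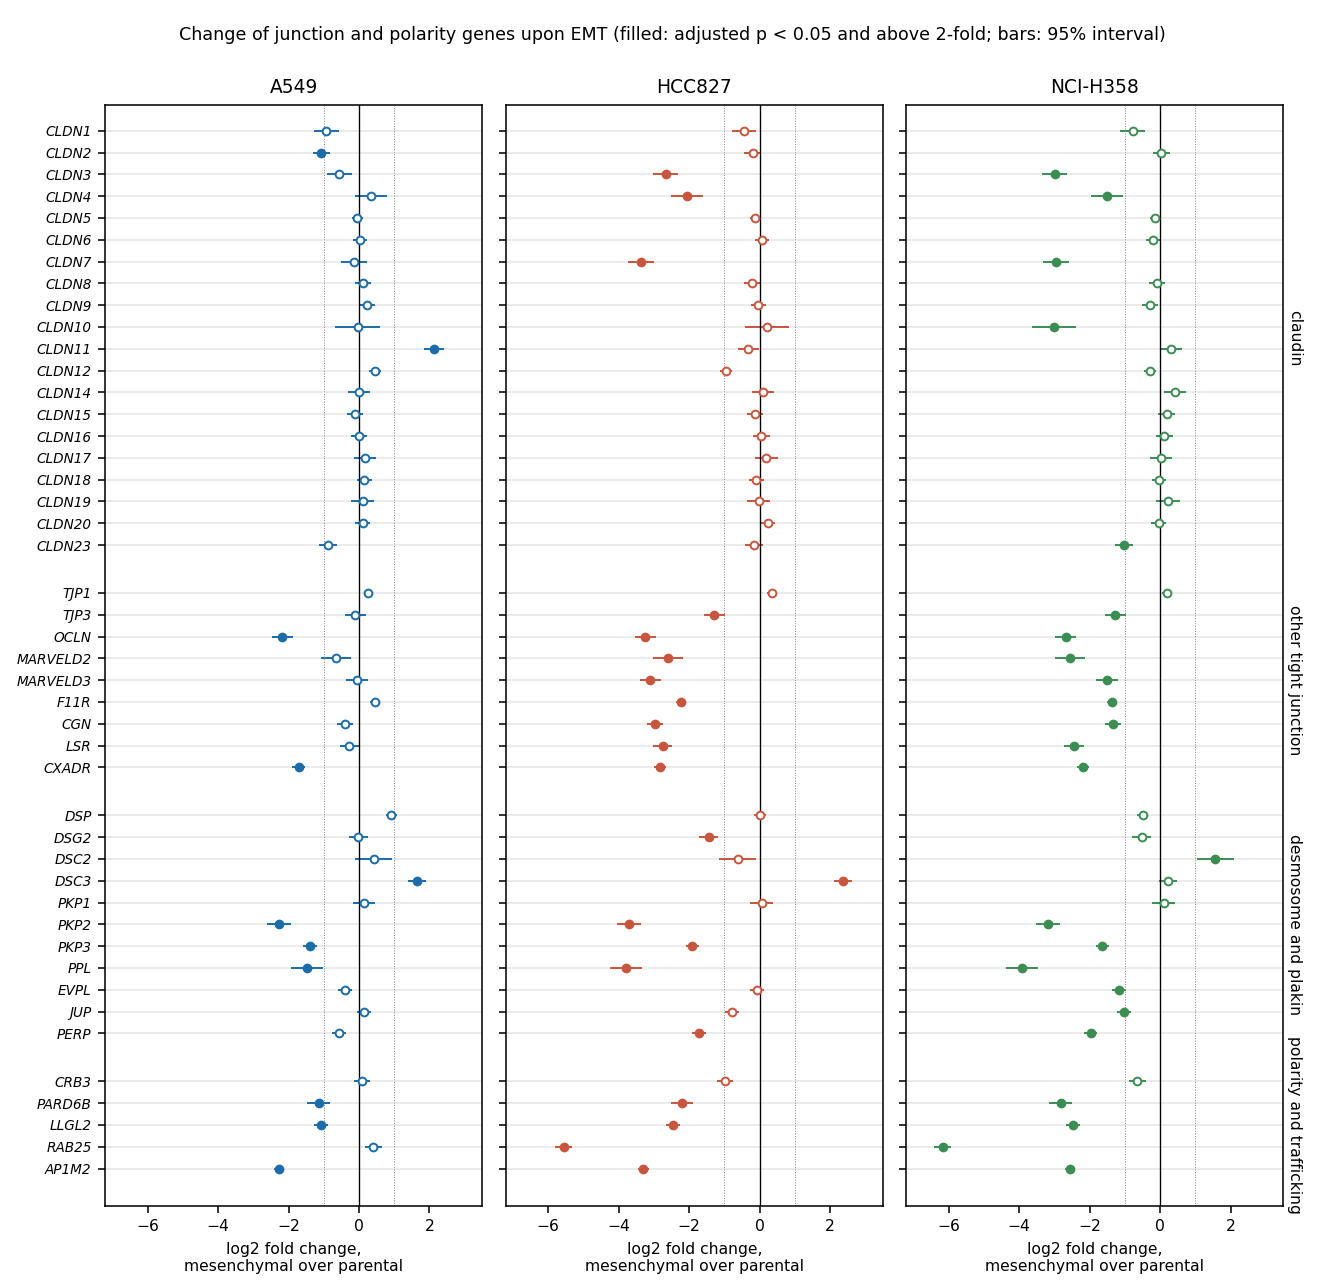
Change of each of the 45 genes in mesenchymal over parental cells, with 1 panel per line. The horizontal axis is the log2 fold change, bars are 95% intervals, filled points passed an adjusted p below 0.05 and a 2-fold change, and dotted lines mark 2-fold. Filled points left of 0 number 9, 20 and 23 from the A549 to the NCI-H358 panel, and most claudins lie near 0.

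Lower in all 3 lines were 8 of the 45 genes, against 0.907% of all genes: OCLN, CXADR, PKP2, PKP3, PPL, PARD6B, LLGL2 and AP1M2. Higher in all 3 lines were 0, against 0.761% of all genes. By the stricter rule 0 were lower in all 3 lines, against 0.121%. A further 11 genes were lower in HCC827 and NCI-H358 but not called in A549: CLDN3, CLDN4, CLDN7, PERP, TJP3, MARVELD2, MARVELD3, F11R, CGN, LSR and RAB25. Over all genes 1.8% had that pattern. There were 17 genes called in no line, against 80.6% of all genes. They were 13 of the 20 claudins, with DSP, PKP1, TJP1 and CRB3. None of the 45 was called lower in 1 line and higher in another.

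The genes were set beside their upstream sequence where it was at hand. The motif CAGGTG is an E-box bound by the EMT repressors of the ZEB and SNAI families. It was searched on both strands (CACCTG on the other) in 250 bases upstream of each gene. The window ended before the outermost start for which sequence was at hand. A window was at hand for 31 of the 45 genes. Of the genes lower in all 3 lines, only AP1M2 and OCLN had one, and CXADR, PKP2, PKP3, PPL, PARD6B and LLGL2 were not searched. F11R, MARVELD3, EVPL and CLDN23, which fell in at least 1 line, had none either. The motif lay in 9 of the 31 windows, 29%, compared with 17.5% of 27305 windows of all genes. Among the genes lower in at least 1 line, 4 of 15 windows held it (26.7%), and among those lower in no line 5 of 16 did (31.2%). Windows with the motif belonged to genes of both kinds: AP1M2, OCLN and RAB25 fell, while DSP and TJP1 were called in no line. The most copies, 5, lay in the window of CRB3, which was called in no line either. That window, like those of CGN and CLDN15, did not lie at the outermost start of the RefSeq gene record. The windows of AP1M2, OCLN, RAB25, DSP and TJP1 are shown to set the copies side by side, each in the direction of its gene and ending at the base before the start, with the motif in capitals. They are RefSeq sequence of GRCh38.p14, at chr19:10587313-10587562 (minus strand) for AP1M2, chr5:69492297-69492546 (plus strand) for OCLN, chr1:156060910-156061159 (plus strand) for RAB25, chr6:7541421-7541670 (plus strand) for DSP and chr15:29969050-29969299 (minus strand) for TJP1.
AP1M2: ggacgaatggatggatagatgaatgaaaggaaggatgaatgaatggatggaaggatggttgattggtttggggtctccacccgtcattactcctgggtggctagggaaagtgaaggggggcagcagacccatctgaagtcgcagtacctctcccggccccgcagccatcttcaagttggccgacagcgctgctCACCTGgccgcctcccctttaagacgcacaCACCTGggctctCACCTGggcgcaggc
OCLN: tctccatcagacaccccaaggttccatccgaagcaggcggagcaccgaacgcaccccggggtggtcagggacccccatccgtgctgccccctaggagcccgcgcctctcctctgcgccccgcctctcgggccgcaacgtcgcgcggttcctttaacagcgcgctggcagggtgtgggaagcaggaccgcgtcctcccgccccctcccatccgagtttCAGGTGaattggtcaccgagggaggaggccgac
RAB25: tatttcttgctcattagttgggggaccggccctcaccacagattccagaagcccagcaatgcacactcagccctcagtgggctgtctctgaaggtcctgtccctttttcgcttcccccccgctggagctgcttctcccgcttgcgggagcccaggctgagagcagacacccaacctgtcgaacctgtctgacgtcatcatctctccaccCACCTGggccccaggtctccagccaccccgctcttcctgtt
DSP: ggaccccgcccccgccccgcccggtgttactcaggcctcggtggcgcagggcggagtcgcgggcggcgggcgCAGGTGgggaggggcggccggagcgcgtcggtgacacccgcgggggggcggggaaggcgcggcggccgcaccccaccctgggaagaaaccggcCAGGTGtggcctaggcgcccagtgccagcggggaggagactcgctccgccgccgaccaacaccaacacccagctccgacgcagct
TJP1: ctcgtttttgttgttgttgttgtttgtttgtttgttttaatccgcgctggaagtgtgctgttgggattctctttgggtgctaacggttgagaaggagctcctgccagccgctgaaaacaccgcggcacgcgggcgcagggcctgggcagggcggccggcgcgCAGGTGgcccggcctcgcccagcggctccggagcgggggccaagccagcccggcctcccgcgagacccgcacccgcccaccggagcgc
The first bases of the copies lie 57, 27 and 15 bases before the start in AP1M2, 33 in OCLN, 41 in RAB25, 178 and 85 in DSP and 88 in TJP1. The windows of CLDN3, CLDN4, CLDN7, LSR and PERP, which fell in HCC827 and NCI-H358, held no such letters. A match describes the sequence only. The gene of ZEB1 itself, 1 of the mesenchymal markers, had means of 9.33, 6.02 and 6.13 in the parental groups and 10.12, 10.20 and 9.80 in the mesenchymal groups of A549, HCC827 and NCI-H358, and was called higher in HCC827 and NCI-H358.

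OCLN encodes occludin, the first tight junction membrane protein to be described, and it fell in every line. In A549 the parental arrays read 6.54, 6.53 and 6.64 and the mesenchymal arrays 4.25, 4.51 and 4.42. In HCC827 they read 8.96, 8.67 and 8.58 against 5.37, 5.44 and 5.66. In NCI-H358 they read 6.71, 7.06 and 7.04 against 3.91, 4.35 and 4.51. The groups did not overlap in any line, and the mesenchymal levels of A549 and NCI-H358 lay below those of HCC827. The changes were -2.17 ± 0.14 (SE), -3.25 ± 0.14 and -2.68 ± 0.14, or 4.51-, 9.48- and 6.41-fold lower, with limma adjusted p of 1.39e-09, 5.24e-12 and 7.82e-11. Parental HCC827 stood above both other parental lines, by 2.16 ± 0.14 over A549 (adjusted p = 5.4e-10).

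OCLN has a near relative of the same MARVEL family, MARVELD2 (tricellulin, which seals the points where 3 cells meet), as its direct protein-coding neighbour in the RefSeq annotation of GRCh38.p14. MARVELD2 fell in HCC827 and NCI-H358, with changes of -2.60 ± 0.20 and -2.56 ± 0.20 (adjusted p = 7.65e-09 and 1.17e-08). In A549 its group means were 4.23 ± 0.18 (SD, n = 3) and 3.59 ± 0.19, a change of -0.64 ± 0.20 with adjusted p = 0.0144 that was below 2-fold. MARVELD3, the remaining member of the family, differed most between lines. Its parental and mesenchymal arrays read 5.39, 5.42 and 5.29 and 4.91, 5.46 and 5.55 in A549. They read 8.48, 8.71 and 8.60 and 5.55, 5.55 and 5.39 in HCC827. They read 6.84, 6.63 and 6.58 and 5.41, 5.21 and 4.92 in NCI-H358. Only the A549 groups overlapped, and all 3 mesenchymal groups lay between 4.91 and 5.55. The MARVELD3 differences were -0.06 ± 0.14, -3.10 ± 0.14 and -1.50 ± 0.14 in the 3 lines (adjusted p = 0.793, 1.16e-11 and 1.63e-07). The fall was larger in HCC827 than in the other lines: the change in HCC827 minus that in A549 was -3.05 ± 0.20 and the change in NCI-H358 minus that in HCC827 1.60 ± 0.20 (adjusted p = 2.68e-09 and 7.68e-06).

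CXADR encodes the coxsackievirus and adenovirus receptor, an immunoglobulin-type adhesion protein of the tight junction. Its arrays read 6.34, 6.38 and 6.16 in parental and 4.67, 4.64 and 4.42 in mesenchymal A549 cells. In HCC827 the values were 9.93, 10.003 and 10.06 and 7.25, 7.05 and 7.22. In NCI-H358 the values were 7.66, 7.60 and 7.66 and 5.49, 5.50 and 5.34. It fell in each line with no overlap, yet mesenchymal HCC827 cells still stood above parental A549 cells. The changes were -1.72 ± 0.08, -2.83 ± 0.08 and -2.19 ± 0.08 (adjusted p = 2.59e-11, 3.28e-14 and 1.05e-12). The difference between HCC827 and A549 was 3.70 ± 0.08 in parental and 2.59 ± 0.08 in mesenchymal cells (adjusted p = 4.26e-16 and 4.49e-14).

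F11R encodes JAM-A, another immunoglobulin-type protein of the junction. In A549 its arrays read 9.94, 9.85 and 9.89 in parental and 10.32, 10.41 and 10.29 in mesenchymal cells, a slightly higher level. In HCC827 they read 12.21, 12.10 and 12.10 and 9.94, 9.95 and 9.87. In NCI-H358 they read 12.10, 12.14 and 12.24 and 10.88, 10.68 and 10.83. No line showed overlap, and the direction in A549 was opposite to that in the other lines. The A549 change was 0.45 ± 0.07 (adjusted p = 3.27e-05) and below 2-fold. The falls were -2.22 ± 0.07 in HCC827 and -1.36 ± 0.07 in NCI-H358 (adjusted p = 4.81e-14 and 3.01e-11). The change in HCC827 minus that in A549 was -2.67 ± 0.09 (adjusted p = 1.1e-12). LSR, which encodes angulin-1, the protein that draws tricellulin to tricellular contacts, fell 6.75-fold in HCC827 and 5.42-fold in NCI-H358 (adjusted p = 1.59e-11 and 9.48e-11). Its change in A549 was -0.27 ± 0.13 (adjusted p = 0.105).

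The scaffolds of the tight junction did not share 1 direction. TJP1, which encodes ZO-1, was the member of its family with the highest mean change. Its arrays read 12.11, 12.18 and 12.24 in parental and 12.46, 12.48 and 12.40 in mesenchymal A549 cells. They read 11.89, 12.05 and 12.06 and 12.33, 12.32 and 12.38 in HCC827. They read 11.61, 11.67 and 11.69 and 11.87, 11.82 and 11.85 in NCI-H358. Every mesenchymal group lay above its parental group without overlap, but by less than 2-fold: 0.27 ± 0.06, 0.35 ± 0.06 and 0.19 ± 0.06 (adjusted p = 0.00159, 0.00014 and 0.0192). TJP3, which encodes ZO-3, fell from 6.83 ± 0.38 (SD, n = 3) to 5.54 ± 0.05 in HCC827 and from 6.79 ± 0.05 to 5.52 ± 0.06 in NCI-H358. Both parental A549, at 5.60 ± 0.12, and mesenchymal A549, at 5.50 ± 0.21, lay near those mesenchymal levels. CGN, which encodes cingulin, a junctional plaque protein, fell 7.77-fold in HCC827 and 2.55-fold in NCI-H358 (adjusted p = 5.46e-13 and 1.72e-08). In A549 the CGN difference was -0.40 ± 0.11 (adjusted p = 0.00575), less than 2-fold.

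**Figure D2:**
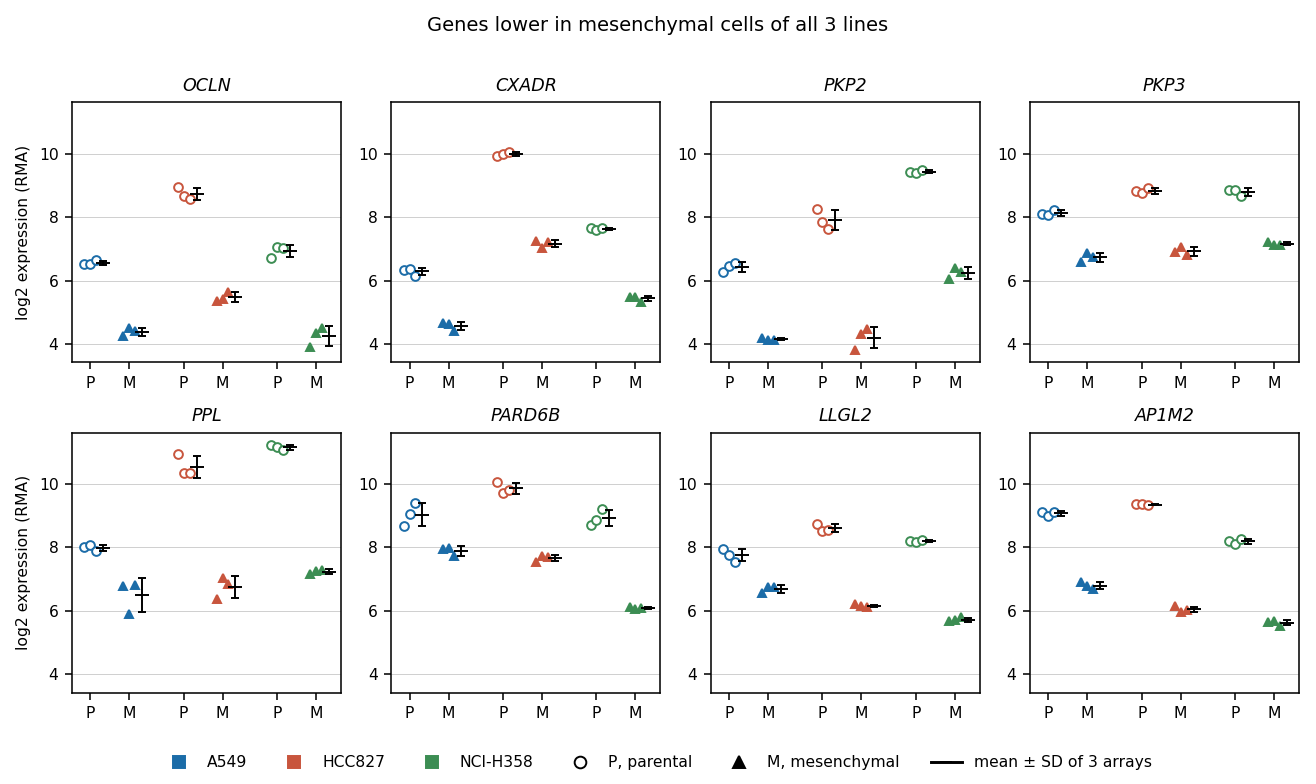
Log2 expression on each array of the 8 genes lower in mesenchymal cells of all 3 lines. Open circles (P) are parental and filled triangles (M) mesenchymal arrays, coloured by line, and the bars give the mean ± SD of 3 arrays. In every panel and line the mesenchymal arrays lie below the parental arrays, with mean changes from -1.07 for LLGL2 in A549 to -3.91 for PPL in NCI-H358.

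Lower in both HCC827 and NCI-H358 were 3 claudin genes, CLDN3, CLDN4 and CLDN7, which encode claudins of simple and lung epithelia. The family member with the lowest mean change, CLDN7, read 11.57, 11.16 and 11.24 in parental and 8.15, 7.79 and 7.90 in mesenchymal HCC827 cells. In NCI-H358 it read 9.58, 9.95 and 9.80 and 6.87, 6.61 and 6.98. In A549 it read 6.38, 6.31 and 6.24 and 6.54, 6.24 and 5.69. The A549 groups overlapped, and both lay below every parental array of the other lines. The changes were -3.38 ± 0.18 in HCC827, -2.96 ± 0.18 in NCI-H358 and -0.15 ± 0.18 in A549 (adjusted p = 4.76e-11, 3.33e-10 and 0.541), and the change in HCC827 minus that in A549 was -3.23 ± 0.25 (adjusted p = 1.48e-08).

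CLDN3 and CLDN4, direct protein-coding neighbours in the RefSeq annotation of GRCh38.p14, followed the same pattern. CLDN3 fell 6.34-fold in HCC827 and 7.95-fold in NCI-H358 (adjusted p = 7.08e-10 and 1.97e-10), and its change in A549 was -0.56 ± 0.17 (adjusted p = 0.0127). CLDN4 fell 4.16-fold and 2.84-fold in the same lines (adjusted p = 3.1e-07 and 1.48e-05), and its change in A549 was 0.34 ± 0.21 (adjusted p = 0.22). For CLDN3 the parental A549 mean of 5.37 ± 0.12 (SD, n = 3) lay below the mesenchymal HCC827 mean of 5.92 ± 0.27 but above the mesenchymal NCI-H358 mean of 4.92 ± 0.34. For CLDN4 the parental A549 mean of 6.08 ± 0.56 lay below the mesenchymal means of 8.20 ± 0.05 in HCC827 and 7.88 ± 0.04 in NCI-H358. Before treatment, CLDN3, CLDN4 and CLDN7 were 9.27-, 18- and 32.4-fold higher in HCC827 than in A549 (adjusted p = 3.22e-11, 1.74e-11 and 1.24e-13).

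CLDN10, which encodes a claudin that forms ion-selective pores, was called in NCI-H358 alone of the 3 lines. There the arrays read 9.53, 9.57 and 9.61 in parental and 6.59, 6.58 and 6.49 in mesenchymal cells. In A549 they read 4.36, 5.24 and 5.01 and 4.82, 4.84 and 4.84. In HCC827 they read 4.42, 3.85 and 5.13 and 5.10, 3.92 and 5.005. Groups overlapped in A549 and HCC827, and were far apart in NCI-H358, and the within-group SD of 0.655 in mesenchymal HCC827 cells was the widest of the 45 genes. The change in NCI-H358 was -3.02 ± 0.30 (adjusted p = 2.45e-07), against -0.04 ± 0.30 in A549 and 0.21 ± 0.30 in HCC827 (adjusted p = 0.939 and 0.634). The change in NCI-H358 minus that in HCC827 was -3.22 ± 0.42 (adjusted p = 1.05e-05). CLDN23 fell in NCI-H358, with a change of -1.02 ± 0.12 (adjusted p = 1.39e-06), close to the 2-fold limit. It dropped below that limit at -0.98 when arrays were centred. The same happened in 3 of the fits with an array left out, at -0.92 without mesenchymal NCI-H358 array 2. In A549 the CLDN23 change was -0.88 ± 0.12 (adjusted p = 8.72e-06), below 2-fold, and in HCC827 -0.16 ± 0.12 (adjusted p = 0.302). The change in NCI-H358 minus that in A549 was -0.14 ± 0.17 (adjusted p = 0.545).

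A549 had claudin changes of its own. CLDN11, known from myelin and the testis, had the highest mean change of the family. Its arrays read 3.52, 3.997 and 3.98 in parental and 5.89, 6.23 and 5.75 in mesenchymal A549 cells. In HCC827 they read 4.84, 5.14 and 4.89 and 4.54, 4.63 and 4.75. In NCI-H358 they read 6.60, 6.89 and 6.78 and 6.99, 7.09 and 7.16. No line showed overlap, but only the A549 groups were more than 2-fold apart. CLDN11 rose 4.36-fold in A549 (adjusted p = 1.13e-09), and the change in HCC827 minus that in A549 was -2.44 ± 0.19 (adjusted p = 2.1e-08). CLDN2, which encodes a cation pore of leaky epithelia, fell from 7.19 ± 0.21 (SD, n = 3) to 6.12 ± 0.14 in A549 (adjusted p = 7.84e-07). Without parental A549 array 1 that change was -0.96, and without mesenchymal A549 array 3 it was -0.99, both under 2-fold. In HCC827 and NCI-H358 the CLDN2 means lay between 5.20 and 5.40 in either state.

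CLDN1 was the claudin with the clearest order of lines in both states. Parental means were 8.13, 5.88 and 4.87 in A549, HCC827 and NCI-H358, and mesenchymal means were 7.20, 5.44 and 4.09. NCI-H358 lay 9.58-fold below A549 before EMT and 8.65-fold below it after (adjusted p = 1.42e-11 and 2.76e-11). Within lines the CLDN1 differences were -0.93 ± 0.16, -0.44 ± 0.16 and -0.78 ± 0.16 (adjusted p = 0.000183, 0.0383 and 0.000866), each below 2-fold. The A549 change passed 2-fold without parental array 1 or without mesenchymal array 3, at -1.05 in the latter fit. CLDN12 had differences of less than 2-fold in opposite directions, 0.46 ± 0.08 in A549 and -0.95 ± 0.08 in HCC827 (adjusted p = 0.000174 and 2.93e-08), and -0.29 ± 0.08 in NCI-H358 (adjusted p = 0.00766). The change in HCC827 minus that in A549 was -1.41 ± 0.11 (adjusted p = 2.91e-08). CLDN15 differed by at most 0.18 between states in any line. The 10 claudins below the median of all values differed between states by at most 0.41 in either direction.

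**Figure D3:**
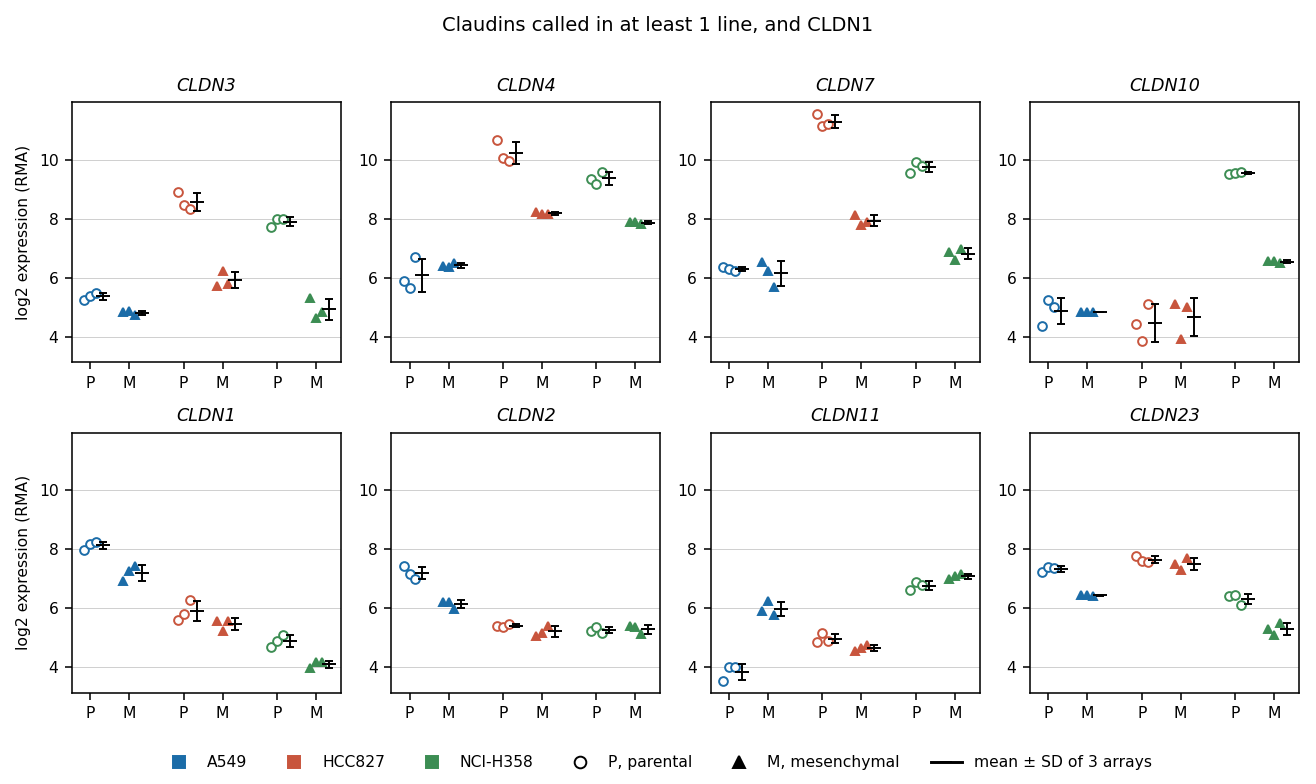
Log2 expression on each array of the 7 claudins called in at least 1 line, and of CLDN1. Open circles (P) are parental and filled triangles (M) mesenchymal arrays, coloured by line, with the mean ± SD of 3 arrays. CLDN3, CLDN4 and CLDN7 drop in HCC827 and NCI-H358 toward the A549 level, CLDN10 drops in NCI-H358 and CLDN11 climbs in A549.

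Within the desmosome list, the plakophilin genes PKP2 and PKP3 and the plakin gene PPL fell in all lines, and no cadherin gene did. PKP2 encodes plakophilin 2, which binds desmoplakin at the plaque. It read 6.27, 6.47 and 6.57 in parental and 4.20, 4.15 and 4.14 in mesenchymal A549 cells. HCC827 cells read 8.25, 7.86 and 7.62 and 3.83, 4.32 and 4.48. NCI-H358 cells read 9.43, 9.39 and 9.48 and 6.06, 6.42 and 6.27. No line showed overlap, and mesenchymal NCI-H358 cells remained near the parental A549 level. The changes were -2.27 ± 0.16, -3.70 ± 0.16 and -3.18 ± 0.16, which is 4.83-, 13- and 9.07-fold lower (adjusted p = 3.18e-09, 4.04e-12 and 3.55e-11).

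PKP3, the gene of plakophilin 3, fell by a similar amount in each line. Its A549 arrays read 8.09, 8.08 and 8.24 in parental and 6.59, 6.88 and 6.76 in mesenchymal cells. HCC827 arrays read 8.83, 8.75 and 8.92 and 6.91, 7.07 and 6.80. NCI-H358 arrays read 8.87, 8.86 and 8.67 and 7.22, 7.14 and 7.13. The parental levels of the lines were within 0.70 of each other and no line showed overlap. The changes were -1.39 ± 0.09, -1.91 ± 0.09 and -1.64 ± 0.09 (adjusted p = 1.15e-09, 1.35e-11 and 1.17e-10). Differences of the PKP3 change between lines were below 2-fold, the largest -0.52 ± 0.13 for HCC827 minus A549, with a 95% interval from -0.78 to -0.25. PKP1, the gene of plakophilin 1, common in stratified epithelia, stayed between 4.98 and 5.31 in all group means.

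PPL encodes periplakin, a cytolinker between the junction and keratin filaments, and had the lowest mean change of its family. In A549 it read 8.0, 8.07 and 7.89 in parental and 6.80, 5.90 and 6.80 in mesenchymal cells. In HCC827 it read 10.93, 10.35 and 10.34 and 6.36, 7.04 and 6.85. In NCI-H358 it read 11.22, 11.15 and 11.07 and 7.15, 7.27 and 7.29. The groups were apart in every line, and mesenchymal A549 array 2 lay well below the other mesenchymal A549 arrays. The changes were -1.49 ± 0.21, -3.79 ± 0.21 and -3.91 ± 0.21, or 2.8-, 13.8- and 15-fold lower (adjusted p = 2.27e-05, 1.52e-10 and 1.26e-10). The fall was larger in NCI-H358 than in A549, with a difference of -2.42 ± 0.30 (adjusted p = 5.47e-06). EVPL, the gene of the partner protein envoplakin, fell only in NCI-H358 by more than 2-fold, with -1.18 ± 0.09 there (adjusted p = 1.51e-08), -0.39 ± 0.09 in A549 (adjusted p = 0.00248) and -0.06 ± 0.09 in HCC827 (adjusted p = 0.653). The EVPL change in NCI-H358 minus that in HCC827 was -1.11 ± 0.13 (adjusted p = 3.42e-06).

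DSP, the gene of desmoplakin, the plakin that anchors keratin filaments at the desmosome, was called in no line. Its parental means were 10.87 ± 0.07, 11.45 ± 0.16 and 11.42 ± 0.06 (SD, n = 3) in A549, HCC827 and NCI-H358, and its mesenchymal means 11.79 ± 0.05, 11.47 ± 0.08 and 10.93 ± 0.01. It was 1.89-fold higher in mesenchymal A549 cells and 1.41-fold lower in mesenchymal NCI-H358 cells (adjusted p = 2.3e-08 and 3.45e-05). The change in NCI-H358 minus that in A549 was -1.42 ± 0.11 (adjusted p = 1.07e-08). JUP is the gene of plakoglobin, shared by desmosomes and adherens junctions, and its differences were 0.14 ± 0.10, -0.78 ± 0.10 and -1.03 ± 0.10 in the same order of lines (adjusted p = 0.266, 2.7e-06 and 1.16e-07). Its call in NCI-H358 was lost at -0.99 with centred arrays and at -0.995 without parental NCI-H358 array 2. PERP, which encodes a tetraspan protein of the desmosome, fell 3.29-fold in HCC827 and 3.94-fold in NCI-H358 (adjusted p = 7.8e-11 and 1.65e-11) and differed by -0.56 ± 0.09 in A549 (adjusted p = 9.04e-05).

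The desmosomal cadherins moved in different directions. DSC3, the gene of desmocollin 3, known from basal layers of stratified epithelia, had the highest mean change of the family. It read 4.52, 4.60 and 4.25 in parental and 6.04, 6.25 and 6.01 in mesenchymal A549 cells. HCC827 cells read 6.18, 6.32 and 5.99 and 8.44, 8.45 and 8.72. NCI-H358 cells read 3.66, 3.39 and 3.72 and 3.68, 3.95 and 3.82. It rose without overlap in A549 and HCC827, while the NCI-H358 groups overlapped at levels between 3.39 and 3.95. The changes were 1.65 ± 0.12, 2.37 ± 0.12 and 0.23 ± 0.12 (adjusted p = 6.91e-09, 4.33e-11 and 0.159). The change in NCI-H358 minus that in HCC827 was -2.14 ± 0.17 (adjusted p = 3.85e-08), and the mesenchymal level in NCI-H358 minus that in HCC827 was -4.72 ± 0.12 (adjusted p = 3.88e-15).

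DSC2, the gene of desmocollin 2, the most widespread desmocollin, lies next to DSC3 in the RefSeq annotation of GRCh38.p14 and was called in NCI-H358, where it rose. Its NCI-H358 arrays read 6.74, 6.42 and 6.80 in parental and 8.55, 7.54 and 8.56 in mesenchymal cells, with no overlap and with mesenchymal array 2 below the other mesenchymal arrays. The change there was 1.57 ± 0.25 (adjusted p = 5.33e-05), against 0.41 ± 0.25 in A549 and -0.62 ± 0.25 in HCC827 (adjusted p = 0.201 and 0.0517). The change in NCI-H358 minus that in HCC827 was 2.18 ± 0.35 (adjusted p = 8.45e-05). Thus these neighbouring genes rose in different lines. DSG2, the gene of desmoglein 2, the desmoglein of simple epithelia, fell in HCC827 from 10.17 ± 0.14 (SD, n = 3) to 8.72 ± 0.12 (adjusted p = 3.31e-08). In A549 the DSG2 change was -0.02 ± 0.12 and in NCI-H358 -0.52 ± 0.12 (adjusted p = 0.937 and 0.00231), and the change in HCC827 minus that in A549 was -1.43 ± 0.18 (adjusted p = 4e-06).

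**Figure D4:**
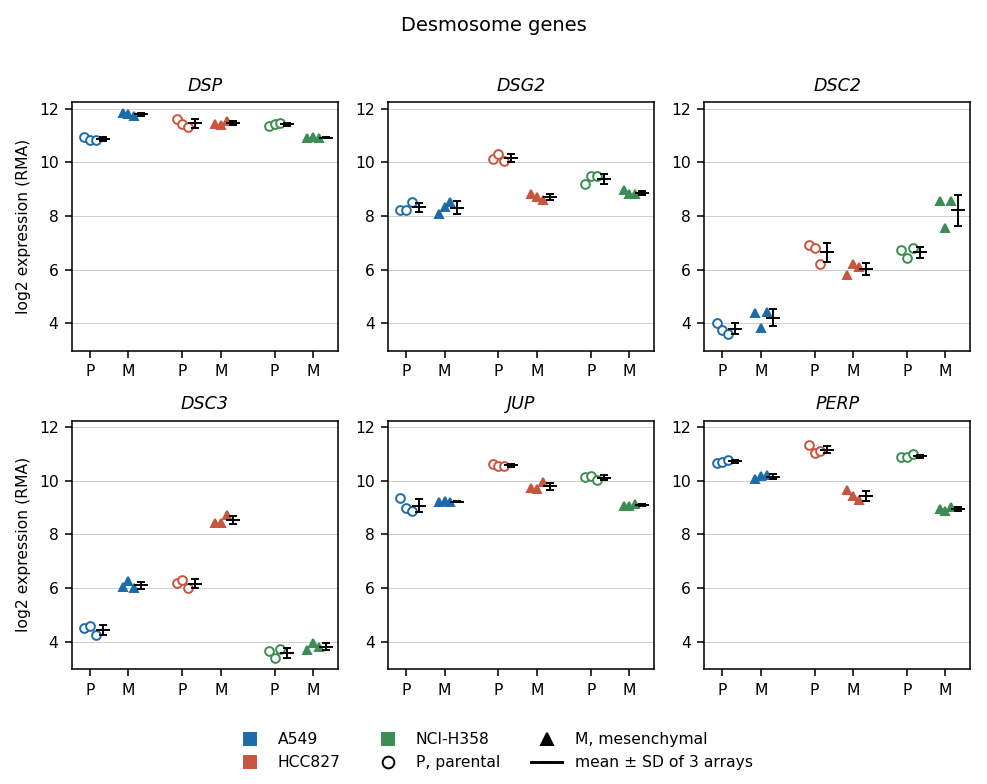
Log2 expression on each array of 6 desmosome genes. Open circles (P) are parental and filled triangles (M) mesenchymal arrays, coloured by line, with the mean ± SD of 3 arrays. DSC3 climbs in A549 and HCC827 and DSC2 in NCI-H358, while DSG2 drops in HCC827 and PERP in HCC827 and NCI-H358.

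Among the polarity genes, PARD6B and LLGL2, whose products belong to the Par complex and to the basolateral Scribble module, fell in all lines. PARD6B read 8.67, 9.05 and 9.38 in parental and 7.96, 7.99 and 7.71 in mesenchymal A549 cells. The HCC827 values were 10.06, 9.70 and 9.81 and 7.55, 7.74 and 7.68. The NCI-H358 values were 8.72, 8.85 and 9.19 and 6.11, 6.07 and 6.11. There was no overlap, and mesenchymal NCI-H358 cells had the lowest level. The changes were -1.15 ± 0.15, -2.20 ± 0.15 and -2.82 ± 0.15 (adjusted p = 9.17e-06, 2.14e-09 and 1.02e-10). Without parental A549 array 3 the A549 change was -0.97, under 2-fold.

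LLGL2 read 7.95, 7.77 and 7.55 in parental and 6.55, 6.75 and 6.76 in mesenchymal A549 cells. The HCC827 values were 8.75, 8.51 and 8.56 and 6.20, 6.14 and 6.13. The NCI-H358 values were 8.20, 8.16 and 8.24 and 5.67, 5.71 and 5.79. The groups did not overlap in any line. The changes were -1.07 ± 0.09, -2.45 ± 0.09 and -2.47 ± 0.09 (adjusted p = 4.38e-08, 7.15e-13 and 8.39e-13). In A549 the change was under 2-fold without parental array 1, at -0.98, and after quantile normalization, at -0.96. The fall was larger in HCC827 and NCI-H358 than in A549, with differences of -1.38 ± 0.13 and -1.40 ± 0.13 (adjusted p = 1.74e-07 and 1.44e-07).

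CRB3, the gene of the apical determinant Crumbs 3, had the highest mean change of the polarity and trafficking genes and was called in no line. In A549 it read 6.73, 7.30 and 7.02 in parental and 7.06, 7.03 and 7.25 in mesenchymal cells. In HCC827 it read 7.85, 7.86 and 7.97 and 7.01, 6.89 and 6.85. In NCI-H358 it read 7.59, 7.44 and 7.53 and 6.81, 6.95 and 6.87. The A549 groups overlapped, and in the other lines the mesenchymal arrays were lower by less than 2-fold. The changes were 0.09 ± 0.11, -0.98 ± 0.11 and -0.65 ± 0.11 (adjusted p = 0.537, 9.07e-07 and 0.000111), and without mesenchymal HCC827 array 1 the HCC827 change was -1.02.

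AP1M2 encodes the epithelial mu subunit of the AP-1 adaptor, which sorts proteins to the basolateral membrane. Its A549 arrays read 9.12, 8.99 and 9.10 in parental and 6.90, 6.80 and 6.69 in mesenchymal cells. HCC827 arrays read 9.35, 9.37 and 9.33 and 6.14, 5.98 and 6.03. NCI-H358 arrays read 8.19, 8.11 and 8.26 and 5.66, 5.69 and 5.53. Within-group SDs were between 0.02 and 0.10, and the groups were far apart in every line. The changes were -2.27 ± 0.07, -3.30 ± 0.07 and -2.56 ± 0.07, or 4.84-, 9.85- and 5.89-fold lower (adjusted p = 1.07e-13, 1.03e-15 and 3.13e-14).

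RAB25, which encodes a small GTPase of apical recycling endosomes, had the largest changes of all 45 genes in HCC827 and NCI-H358. In HCC827 it read 10.94, 10.46 and 10.56 in parental and 5.05, 5.01 and 5.20 in mesenchymal cells. In NCI-H358 it read 11.70, 11.51 and 11.55 and 5.40, 5.52 and 5.33. In A549 it read 4.65, 4.70 and 4.71 and 4.95, 5.06 and 5.27. All mesenchymal arrays and the parental A549 arrays lay between 4.65 and 5.52, below the median of all values, and only parental HCC827 and NCI-H358 stood high. The changes were -5.56 ± 0.11 in HCC827 and -6.17 ± 0.11 in NCI-H358 (adjusted p = 3.17e-16 and 2.95e-16), against 0.41 ± 0.11 in A549 (adjusted p = 0.00631). The change in NCI-H358 minus that in A549 was -6.58 ± 0.16 (adjusted p = 1.48e-14). The parental RAB25 level minus that of parental A549 cells was 5.96 ± 0.11 in HCC827 and 6.90 ± 0.11 in NCI-H358 (adjusted p = 4.48e-17 and 5.17e-18). After EMT the group means were 5.09, 5.09 and 5.42 for A549, HCC827 and NCI-H358.

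The difference between lines in the size of the change was itself tested. It passed the test and 2-fold in at least 1 pair of lines for 29 genes, against 21.5% of all genes. It did so for 23 genes between HCC827 and A549, against 13.4% of all genes, for 20 between NCI-H358 and A549, against 12.7%, and for 6 between NCI-H358 and HCC827, against 11%. All 23 in the first pair were more negative in HCC827. Of these, CLDN3, CLDN4, CLDN7, CLDN11, TJP3, MARVELD2, MARVELD3, CXADR, DSC2 and RAB25 had parental A549 means below the median of all values. The rest had parental A549 means above it. Whether a low starting level limited the change in A549 was not tested. Of the 20 in the second pair, 18 were more negative in NCI-H358, with CLDN2 and DSC2 the other way. The 6 in the last pair were CLDN10, MARVELD3, CGN, DSC2, DSC3 and EVPL, of which MARVELD3, CGN and DSC2 were the more positive in NCI-H358.

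The lines also differed before treatment. In parental cells, 20 of the 45 genes were higher and 2 lower in HCC827 than in A549, against 10.2% and 8.62% of all genes. In NCI-H358, 18 were higher and 3 lower than in A549, against 10.7% and 9.79%. Between NCI-H358 and HCC827, 3 were higher and 9 lower in NCI-H358, against 7.27% and 7.91%. The genes lower in both HCC827 and NCI-H358 than in A549 were CLDN1 and CLDN2, and CLDN23 was lower in NCI-H358. Of the 8 genes lower in all 3 lines upon EMT, PKP3, PARD6B, LLGL2 and AP1M2 differed by less than 2-fold between each other parental line and A549, whereas PKP2 and PPL were higher in both, as was CXADR.

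In mesenchymal cells fewer of the 45 genes differed from A549. The counts in either direction were 10 for HCC827, against 17.2% of all genes, 12 for NCI-H358, against 19.8%, and 11 between NCI-H358 and HCC827, against 15.2%. The median absolute difference of the 45 genes between HCC827 and A549 was 0.874 in parental and 0.276 in mesenchymal cells. Between NCI-H358 and A549 it was 0.976 and 0.417. Between NCI-H358 and HCC827 it was 0.408 and 0.421. Over all genes the same medians were 0.315 and 0.309, 0.336 and 0.334, and 0.271 and 0.272. These levels and the changes share their arrays, so they are not independent of each other. Genes that still differed between HCC827 and A549 after EMT numbered 9 of the 22 that did before: CLDN1, CLDN3, CLDN4, CLDN7, CLDN11, OCLN, CXADR, DSC2 and DSC3, of which CLDN11 turned direction. Its level in HCC827 was 2.18-fold above A549 before and 2.49-fold below A549 after treatment (adjusted p = 1.48e-06 and 2.15e-07).

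**Figure D5:**
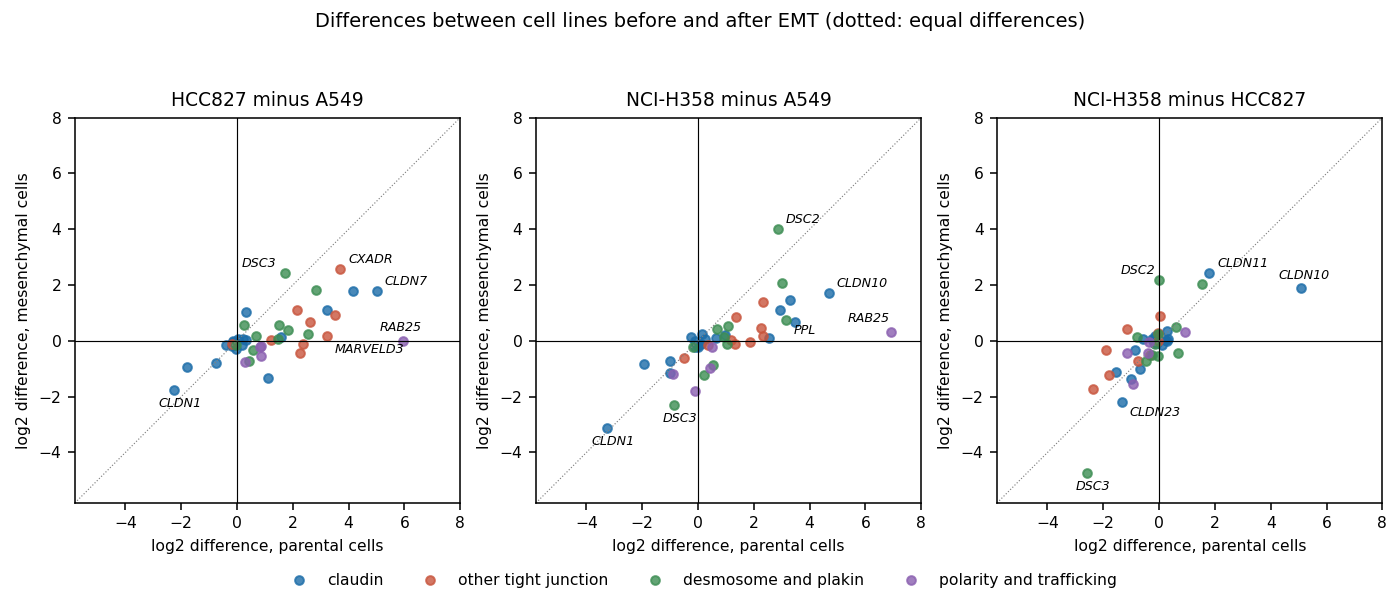
Differences between lines for each of the 45 genes, in parental cells (horizontal) and mesenchymal cells (vertical), both in log2 units, with 1 panel per pair of lines and points coloured by family. Points on the dotted line differ equally in both states. In the panels against A549 most points right of 0 lie below the dotted line. Median absolute differences fall there from 0.874 to 0.276 and from 0.976 to 0.417. Several genes, among them CLDN1, DSC2 and DSC3, lie away from 0 after EMT in both of these panels. Called in both states were 9 genes for HCC827 and 8 for NCI-H358.

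Other junction genes were read from a list of 44 that were no members. Both lists were chosen with earlier results of these data known, so their counts cannot be set against each other. Of the 44, 2 were lower and 2 higher in A549, against 3.87% and 4.15% of all genes. In HCC827 the counts were 5 and 5, against 6.58% and 4.89%. In NCI-H358 they were 8 and 2, against 5.42% and 3.96%. The median changes were -0.01, -0.11 and -0.16. DST, the gene of the plakin dystonin, was lower in every line, with changes of -2.37, -1.59 and -1.96. INADL, the gene of the Crumbs partner PATJ, fell in HCC827 and NCI-H358, with changes of -3.09 and -2.39, as did ILDR1, an angulin gene like LSR, with -2.27 and -1.27. Its relative ILDR2 rose by 4.51 and 2.11 in these lines. JAM3, a relative of F11R, rose by 1.14 in A549 and 1.21 in HCC827.

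A single probe set stood for each gene, and for 13 of the 45 it was one that the manufacturer marks as shared between transcripts (suffix _s_at), namely CLDN1, CLDN3, CLDN18, F11R, CGN, LSR, DSG2, DSC2, PKP2, PKP3, JUP, PERP and LLGL2. With 3 arrays a group, an exact permutation test of a single gene could not go below 0.1, so the calls rest on the spread that limma pools over all genes and groups.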

How the data were processed

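The labels place 18 Affymetrix U133 Plus 2.0 arrays in 6 groups of 3. Normalization by RMA was done by the authors, whose deposited table gives log2 expression for 19849 genes, each from 1 probe set. How that probe set was chosen, and the annotation version, were not given in the sources used here. Arrays have no sequencing depth, and their number limits the precision. All 18 arrays were fitted in limma 3.58.1 under R 4.3.3 (lmFit and eBayes) with 6 groups and no covariate, and 12 contrasts were taken: the change in each line, differences of the change, and levels between lines in either state. P-values were adjusted by Benjamini-Hochberg over all 19849 genes. The fit was checked on simulated data. All 45 gene IDs were found in the RefSeq table. Values on every array are given for genes called in all 3 lines, for the lowest and highest mean change of each family and for the 5 largest differences between lines. Alternatives were the study's cutoffs, no minimum fold, centring, quantile normalization, separate fits, an intensity trend, a robust prior, the methods' t-test, a filter on dim genes and each array left out. The genes and lists were chosen with earlier results of these data known.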

Additional observations from a re-analysis of the deposited data

Results flagged for a closer look

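For 29 of the 45 genes the change upon EMT differed between at least 1 pair of lines, with an adjusted p below 0.05 in limma and a difference above 2-fold, compared with 21.5% of all genes. The values that follow are the largest such difference of each gene on the log2 scale, and 27 of the 29 are negative. Against A549, the change in HCC827 was the more negative for CLDN7 (-3.23), MARVELD3 (-3.05), F11R (-2.67), CGN (-2.56), LSR (-2.48), CLDN11 (-2.44), CLDN4 (-2.39) and MARVELD2 (-1.96). The same held at smaller size for DSG2 (-1.43), PKP2 (-1.43), CLDN12 (-1.41), TJP3 (-1.18), CXADR (-1.11), OCLN (-1.07), CRB3 (-1.07) and AP1M2 (-1.03). In NCI-H358 minus A549 the difference was -6.58 for RAB25, -2.43 for CLDN3, -2.42 for PPL, -1.68 for PARD6B, -1.42 for DSP, -1.42 for PERP, -1.40 for LLGL2 and -1.17 for JUP, while for CLDN2 it was 1.11. In NCI-H358 minus HCC827 it was -3.22 for CLDN10, -2.14 for DSC3 and -1.11 for EVPL, and 2.18 for DSC2. Groups of 3 arrays were too small for a test of single arrays that lie apart.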

How the results depend on the processing

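With the study's cutoffs the counts of called genes dropped in A549 to 0 (0 lower, 0 higher), in HCC827 to 13 lower and in NCI-H358 to 12 (12 lower, 0 higher). Differences of the change then numbered 8 (HCC827 and A549), 4 (NCI-H358 and A549) and 0 (NCI-H358 and HCC827), parental differences 11, 12 and 3, and mesenchymal differences 2, 2 and 2. Only counts that moved past a set ratio are given for these cutoffs. With no minimum fold, A549 had 23 (16 lower, 7 higher), and the genes higher became 2 in HCC827 and 3 in NCI-H358. The genes lower in HCC827 and NCI-H358, far more numerous, moved less than that ratio. Differences of the change between NCI-H358 and HCC827 then numbered 17, parental differences 34, 34 and 29, and mesenchymal differences 23, 26 and 25. With 1 array left out, the counts were 10 to 11 in A549, 21 to 22 in HCC827 and 22 to 24 in NCI-H358. Single calls lost or gained with centring, quantile normalization or an array left out stand beside their genes. CLDN12 in HCC827 also passed 2-fold without parental array 2 or 3, reaching -1.01. The separate fits, intensity trend, robust prior, t-test and dim-gene filter changed no call of a member, although that filter left 102 of 135 member changes to test. No alternative reversed a call. No paired analysis was possible because the labels carry no replicate numbers.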
